A study of Rattus norvegicus with 6 samples.

Results

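CCNY knockdown was compared directly with CCNY overexpression in primary hippocampal neurons, which sets the lowest level of Ccny transcript in the study against the highest. The comparison used 4 of the 6 libraries, 2 labelled CCNY-shRNA and 2 labelled CCNY-WT. They were chosen by their labels, and the 2 EGFP control libraries carried no weight in the difference. All cultures were prepared from embryonic day 18 Sprague-Dawley rats, were infected with lentivirus on day 5 or 6 in vitro, and gave total RNA on day 14. CCNY-shRNA neurons received a virus for a short hairpin RNA against Ccny together with EGFP, CCNY-WT neurons a virus for wild-type CCNY fused to EGFP, and EGFP neurons a virus for EGFP alone, all from the FUGW lentiviral vector, whose ubiquitin promoter is not restricted to neurons. The labels name 1 hairpin, and a control hairpin was not analysed here. The CCNY-WT cells keep their own Ccny gene, so the fused and the endogenous transcript add up in the values. Expression was measured by RNA-seq of poly(A) RNA and deposited as FPKM, which scales fragment counts by transcript length and library size.

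Cyclin Y is an unusual cyclin that is anchored to membranes and activates the kinases CDK14 and CDK16 rather than driving the cell cycle by itself. In dividing cells it is best known for phosphorylation of the Wnt co-receptor LRP6. In neurons, which do not divide, it has been linked to the elimination of synapses and to restraint of their strengthening.

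Read counts were not analysed here, and the depth of the libraries is unknown. The smallest steps in the FPKM values of weak genes put the depth of the other libraries between 0.617 (CCNY-shRNA replicate 1) and 0.870 (CCNY-shRNA replicate 2) of that of CCNY-WT replicate 1, with CCNY-WT replicate 2 at 0.704. The third quartile of FPKM lay between 22.87 and 23.04 in all 6 libraries. In CCNY-WT replicate 1, 15.1% of the summed FPKM came from Bc1, which was listed at 0 elsewhere. In genes of moderate level (mean FPKM between 30 and 100), log2 ratios of single libraries had a robust SD of 0.103 between the CCNY-WT replicates, 0.133 between the CCNY-shRNA replicates, and 0.130 to 0.160 between libraries of the 2 conditions. Some genes that all cells use, such as Rhoa and Rpl36, were listed at 0 in every library, so a 0 is given below only as a listed value. The labels do not say that replicates came from separate cultures, and p-values here measure the spread between these libraries only.

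The targeted gene followed its labels in every library. The FPKM of Ccny was 108 and 109 in CCNY-WT, 5.98 and 6.19 in CCNY-shRNA, and 43.1 and 42.3 in EGFP, with means of 109 ± 0.611 (SD, n = 2), 6.09 ± 0.148 and 42.7 ± 0.601. The 2 conditions were thus 17.9-fold apart (log2 difference -4.16, standard error 0.0658, limma adjusted p = 7.41e-08), with EGFP between them and no overlap among the 3 groups.

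Values under 1 were set to 1 before taking log2, and the genes reaching an FPKM of 1 in 2 or more of the 6 libraries were tested with limma, a linear model that shares the estimate of the spread across genes and over all 6 libraries. Of 17066 genes listed, 10188 were tested. At an adjusted p of 0.05 (Benjamini-Hochberg over all genes tested), 20 genes were lower in CCNY-shRNA than in CCNY-WT, 0.196% of those tested, and 2 were higher, 0.0196%, or 22 in all (0.216%). At an unadjusted p under 0.05, 725 genes were lower (7.12%) and 514 higher (5.05%), 1239 in all (12.2%). Both CCNY-shRNA libraries lay under both CCNY-WT libraries in 2236 genes (21.9%) and above them in 2064 (20.3%). The median absolute log2 difference over all genes was 0.103, with a 95th percentile of 0.455, and the median difference was 0.00. A log2 difference beyond 1 was seen for 24 genes in the lower and 15 in the higher direction, but only 8 of these had a mean FPKM of 5 or more. The calls rest on the pooled estimate of the spread. When the fit held only the 4 libraries compared, Ccny alone passed, and the adjusted p of the other 21 genes ranged from 0.0627 (Azin1) to 0.193 (Rasgrp2). Leaving out 1 library at a time left 1 lower gene without EGFP replicate 1, without EGFP replicate 2, without CCNY-WT replicate 1 and without CCNY-WT replicate 2, 7 without CCNY-shRNA replicate 1 and 4 without CCNY-shRNA replicate 2, and at most 1 higher gene in each case.

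**Figure D1:**
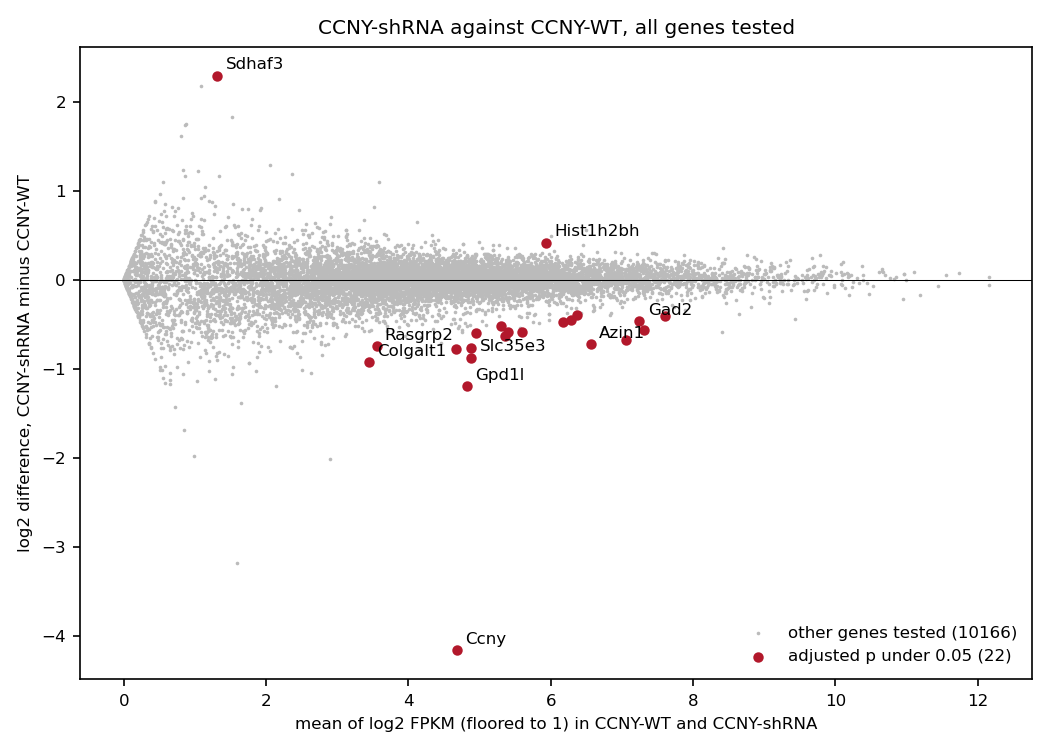
Each point is a gene tested, with the mean log2 FPKM over the 2 conditions on the horizontal axis and the log2 difference of CCNY-shRNA from CCNY-WT on the vertical axis. The 22 genes past the adjusted threshold are in red, with Ccny at -4.16 far below the rest and Sdhaf3 at 2.29 at the top.

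Besides Ccny, the lower genes included 2 of inhibitory and modulatory transmission. Gad2, which encodes the GABA-synthesizing enzyme GAD65, had an FPKM of 176 and 181 in CCNY-WT versus 129 in each in CCNY-shRNA (log2 difference -0.46, standard error 0.0494, limma adjusted p = 0.0165). Adora1, the inhibitory adenosine A1 receptor, had 88.96 and 92.9 against 65.7 and 67.3 (log2 difference -0.45, standard error 0.0563, limma adjusted p = 0.0330). In both genes the CCNY-shRNA libraries lay under every other library. The EGFP libraries had 170.4 and 173 for Gad2, slightly below CCNY-WT. For Adora1 they had 78.6 and 82.6, between the 2 conditions, with a mean of 80.6 against 90.9 in CCNY-WT and 66.5 in CCNY-shRNA. In bulk RNA, fewer cells of a type and less RNA per cell cannot be told apart. Of the other GABA neuron genes among the neuron markers, Gad1 had 204 and 198 against 183 and 187 (log2 difference -0.12, limma adjusted p = 0.411) and the vesicular GABA transporter Slc32a1 128 and 139.7 against 121 and 118 (-0.17, limma adjusted p = 0.376).

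A pair of signalling enzymes downstream of diacylglycerol and calcium was also lower. Prkca, protein kinase C alpha, had an FPKM of 82.9 and 86.99 in CCNY-WT versus 62.5 and 59.9 in CCNY-shRNA (log2 difference -0.47, standard error 0.0556, limma adjusted p = 0.0252). Rasgrp2, a calcium- and diacylglycerol-regulated exchange factor for Rap GTPases, had 14.7 and 15.7 against 8.72 and 9.39 (log2 difference -0.75, standard error 0.102, limma adjusted p = 0.0419). With 89.99 and 90.03 for Prkca and 15.3 and 15.1 for Rasgrp2, the EGFP libraries were near or above the level of CCNY-WT. These were the only members past the threshold in the list of protein kinase C isoforms, diacylglycerol kinases and Ras or Rap exchange factors, of which 25 could be tested. In that list, 7 members (28.0%) were lower at an unadjusted p under 0.05, against 7.12% of all genes, and 0 were higher. The 7 include Prkca and Rasgrp2, and the list was chosen with earlier results of these data known, so its share is descriptive only. The others included Dgke (log2 difference -0.43, limma adjusted p = 0.124), Rasgrp1 (-0.36, 0.174), Prkcb (-0.17, 0.318) and Rasgrf1 (-0.20, 0.324), each with its p adjusted by limma over all genes. Both CCNY-shRNA libraries lay under both CCNY-WT libraries in 11 of the 25 tested, and in 21.9% of all genes. The median of the list was -0.04.

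Another 5 genes past the threshold, all lower in CCNY-shRNA, encode membrane, secreted or matrix-modifying proteins. Colgalt1, a galactosyltransferase that modifies collagen, had 14.9 and 15.03 in CCNY-WT against 8.17 and 7.60 in CCNY-shRNA (log2 difference -0.92, standard error 0.113, limma adjusted p = 0.0311), so its level was about 1.90-fold higher in CCNY-WT. Cd164, a sialomucin of endosomes and the cell surface, had 33.9 and 32.5 against 18.95 and 19.9 (log2 difference -0.77, standard error 0.0720, limma adjusted p = 0.00885). The matricellular protein gene Nov (CCN3) had 39.5 and 36.3 against 25.2 and 24.9 (log2 difference -0.60, standard error 0.0809, limma adjusted p = 0.0419). Both conditions were tight for these genes, and the spread within a condition was small beside the gap. Adam10, the main alpha-secretase and a sheddase of synaptic adhesion proteins, had 55.3 and 48.9 against 35.4 and 33.8 (log2 difference -0.59, standard error 0.0742, limma adjusted p = 0.0330). Megf9, a transmembrane protein with EGF-like repeats, had 60.96 and 57.2 against 39.8 and 39.1 (log2 difference -0.58, standard error 0.0607, limma adjusted p = 0.0154).

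Of the remaining lower genes, 4 encode metabolic enzymes, a protein of a transporter family and a regulator of polyamine synthesis. Gpd1l, a glycerol-3-phosphate dehydrogenase 1-like enzyme, showed the largest difference after Ccny among the 20, with an FPKM of 45.7 and 40.1 in CCNY-WT versus 17.03 and 20.5 in CCNY-shRNA (log2 difference -1.20, standard error 0.121, limma adjusted p = 0.0139). Slc35e3, of the nucleotide sugar transporter family, had 41.1 and 38.8 against 22.7 and 20.9 (log2 difference -0.87, standard error 0.0722, limma adjusted p = 0.00627). The values in EGFP, 49.96 and 42.01 for Gpd1l and 43.1 and 42.6 for Slc35e3, were close to or above those in CCNY-WT. Azin1, the antizyme inhibitor that keeps ornithine decarboxylase active in polyamine synthesis, had 121 and 122 against 72.4 and 75.2 (log2 difference -0.72, standard error 0.0511, limma adjusted p = 0.00391), the smallest p after Ccny. Lpgat1, a lysophospholipid acyltransferase, had 51.2 and 50.7 against 32.8 and 33.2 (log2 difference -0.63, standard error 0.0584, limma adjusted p = 0.00885).

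A further 5 lower genes encode nuclear and translation-related proteins. Cse1l, the exportin that returns importin alpha to the cytoplasm, had 38.4 in each in CCNY-WT against 23.6 and 21.6 in CCNY-shRNA (log2 difference -0.77, standard error 0.0709, limma adjusted p = 0.00885). Cbx6, a chromobox protein of Polycomb complexes, had 93.8 and 95.9 against 73.7 and 71.1 (log2 difference -0.39, standard error 0.0520, limma adjusted p = 0.0416), the smallest difference among the 20. Nap1l3, a nucleosome assembly protein-like gene, had 48.8 and 45.6 against 33.4 and 32.5 (log2 difference -0.52, standard error 0.0655, limma adjusted p = 0.0330). Unlike these, the other two were among the more abundant transcripts. Bzw1, a regulator of translation initiation, had 187 and 200.4 against 126 and 137 (log2 difference -0.56, standard error 0.0633, limma adjusted p = 0.0228). Wdr6, a WD-repeat protein that acts in tRNA modification, had 171 and 165 against 108 and 103 (log2 difference -0.67, standard error 0.0523, limma adjusted p = 0.00536).

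The 2 genes that were higher in CCNY-shRNA were Sdhaf3 and Hist1h2bh. Sdhaf3, an assembly factor for succinate dehydrogenase, lay near the floor in CCNY-WT, at 0.907 and 1.27, against 4.32 and 7.03 in CCNY-shRNA and 3.52 and 4.26 in EGFP (log2 difference 2.29, standard error 0.265, limma adjusted p = 0.0243). Because of the low level in CCNY-WT, its difference moved to 1.65 with log2(FPKM + 1). Hist1h2bh, which encodes a histone H2B, had 52.8 and 53.2 in CCNY-WT, 71.8 and 69.8 in CCNY-shRNA, and 67.8 and 65.5 in EGFP (log2 difference 0.42, standard error 0.0548, limma adjusted p = 0.0405). H2B genes are near-identical copies of each other, and reads can be divided among them, so this value is uncertain. In both genes the CCNY-WT libraries were below all others and EGFP lay between the 2 conditions.

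**Figure D2:**
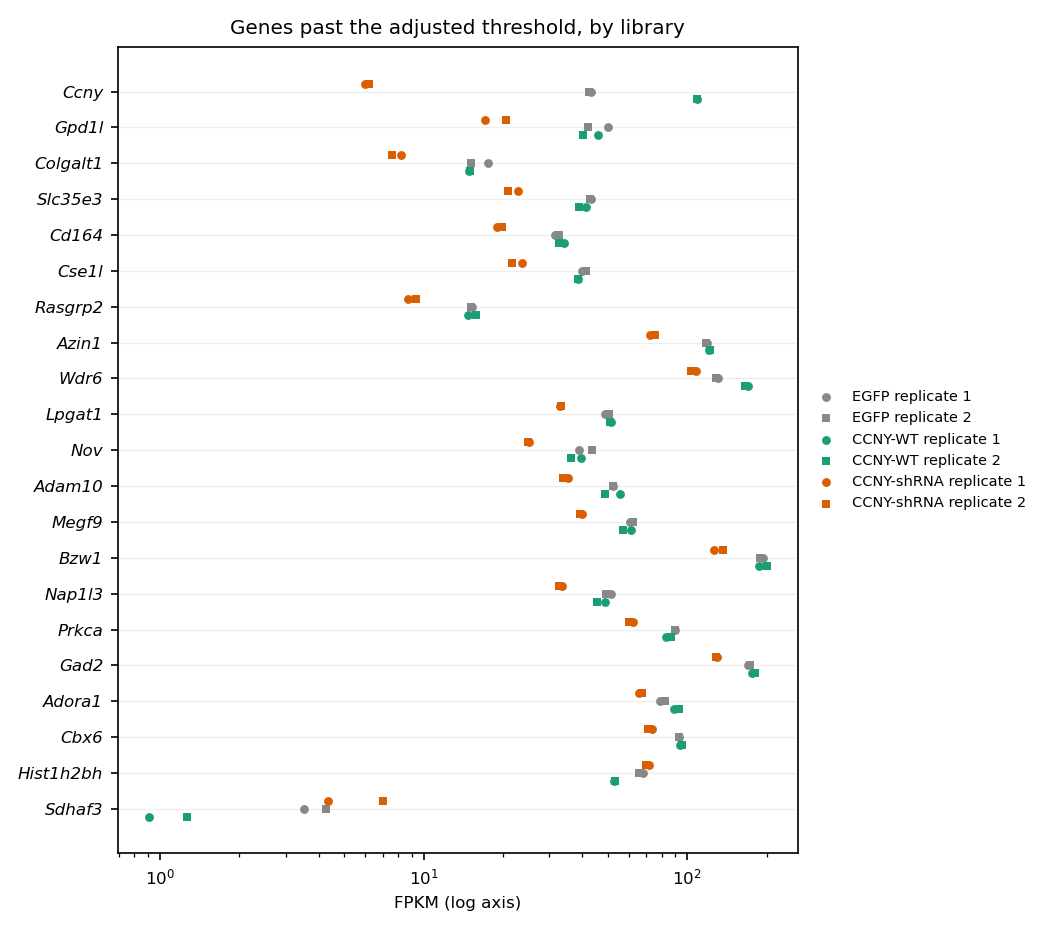
FPKM (log axis) of 21 of the 22 genes past the adjusted threshold in each of the 6 libraries, ordered from the most negative log2 difference of CCNY-shRNA from CCNY-WT to the most positive. Among the lower genes the 2 CCNY-shRNA libraries lie left of the other 4, and EGFP lies beside CCNY-WT for most of them, while for Hist1h2bh and Sdhaf3 it lies nearer to CCNY-shRNA.

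The EGFP libraries, which had no weight in the difference, give the level of each gene without a Ccny construct. On the log2 scale, EGFP was placed between CCNY-shRNA at 0 and CCNY-WT at 1. For 18 of the 19 lower genes other than Ccny, EGFP was nearer to CCNY-WT, with a median position of 0.999 and a range of 0.442 (Wdr6) to 1.19. In all 20 lower genes both EGFP libraries lay above both CCNY-shRNA libraries. The EGFP libraries overlapped CCNY-WT in 8 of the 20, lay above it in 5 (Slc35e3, Cse1l, Prkca, Colgalt1 and Nap1l3) and below it in 7 (Ccny, Azin1, Wdr6, Lpgat1, Gad2, Adora1 and Cbx6). Wdr6 was the one gene of the 19 with EGFP nearer to CCNY-shRNA, at 131 and 128, above 108 and 103 in CCNY-shRNA and below 171 and 165 in CCNY-WT. For the 2 higher genes EGFP was nearer to CCNY-shRNA, at 0.210 and 0.222. These placements were not counted over all genes tested, so they are not shown to be particular to the called genes. In genes with a mean FPKM between 30 and 100, EGFP was also nearer to CCNY-WT. There the log2 ratios of single libraries had a robust SD of 0.0994 to 0.145 for EGFP against CCNY-WT. Against CCNY-shRNA it was 0.143 to 0.223. Over all genes tested, 202 (1.98%) had the 3 groups in the order CCNY-shRNA, EGFP, CCNY-WT with no overlap, and 135 (1.33%) in the reverse order.

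Promoter sequences were looked up for the 22 genes in the RefSeq promoter table (build GRCr8), and 18 matched, 17 of the lower genes and Sdhaf3. The 250 bases before the start of each gene were searched on both strands for 6 short motifs. The E-box CACGTG, a palindrome read by basic helix-loop-helix factors, was in 5 of the 17 promoters of lower genes, against 8.39% of 8739 promoters of genes tested and 5.59% of all 33469 promoters. This motif is shown because its share was the one furthest above that of all tested promoters, a choice made after the counts were seen and with no test. Windows of 60 bases around it are given 5′ to 3′ on the strand of the gene, with the E-box in capitals.
Cd164, chr20:46606305-46606364, plus strand: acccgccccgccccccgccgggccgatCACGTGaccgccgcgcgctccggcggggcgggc
Megf9, chr5:89120750-89120809, minus strand: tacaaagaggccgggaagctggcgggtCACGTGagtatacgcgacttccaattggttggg
Adam10, chr8:80226756-80226815, plus strand: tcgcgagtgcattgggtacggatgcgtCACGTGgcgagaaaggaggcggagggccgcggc
Cbx6, chr7:113263503-113263562, minus strand: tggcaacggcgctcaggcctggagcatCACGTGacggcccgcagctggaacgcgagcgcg
Rasgrp2, chr1:213136674-213136733, plus strand: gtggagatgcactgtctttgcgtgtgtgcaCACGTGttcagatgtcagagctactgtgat
The E-box lies 107 bases before the start in Cd164, 51 in Megf9, 79 in Adam10, 122 in Cbx6 and 30 in Rasgrp2, counted from its first base. The GC box GGGCGG was in 10 of the 17 (59.9% of promoters of genes tested), the CCAAT box CCAAT in 6 (35.2%), and the cAMP response element TGACGTCA in 1, Cse1l (3.11%). The TATA box TATAAA was in 0 of the 17 (5.98%), as was the AP-1 site TGANTCA (4.17%). A match describes the letters in the window and not a bound site.

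The kinases and partners of cyclin Y showed little difference beside that of Ccny. Among the 13 members tested of a list of cyclin Y, its kinases and their relatives, LRP5 and LRP6, and 14-3-3 proteins, Ccny alone passed the threshold. Cdk16 had 143 and 156 in CCNY-WT versus 169 and 168 in CCNY-shRNA (log2 difference 0.17, 95% interval 0.04 to 0.31, limma adjusted p = 0.317). Cdk14 had 43.6 and 41.9 against 44.8 and 47.4 (0.11, interval -0.07 to 0.29), and Lrp6 7.52 and 6.64 against 6.61 and 6.32 (-0.13, interval -0.43 to 0.18). Cdk18 lay near the floor, with overlapping conditions at 2.83 and 1.39 against 1.42 and 0.672. In the Wnt pathway list, 0 of 28 members tested passed. At an unadjusted p under 0.05, 2 were lower and 2 higher (7.14% each, near the 7.12% and 5.05% of all genes). These were Nkd2 (-0.45) and Gsk3b (-0.19) in the lower direction and the secreted inhibitor Wif1 (0.43) and the receptor Fzd1 (0.24) in the higher.

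No glutamate receptor or postsynaptic scaffold gene tested passed the adjusted threshold in limma. Of 17 AMPA and NMDA receptor subunits and auxiliary proteins tested, 4 were lower at an unadjusted p under 0.05 (23.5%, against 7.12% of all genes) and 0 were higher. The median of the list was -0.14. Grin2a, the GluN2A subunit, had 20.2 and 18.6 against 17.5 and 14.8 (log2 difference -0.27, limma adjusted p = 0.368). Gria4 had 56.5 and 53.3 against 49.1 and 46.7 (-0.20, limma adjusted p = 0.333), and the obligatory NMDA subunit Grin1 209 and 207 against 196 and 183 (-0.13, limma adjusted p = 0.388). Cnih3, a cornichon that escorts AMPA receptors, differed by -0.34 (limma adjusted p = 0.332), with EGFP at 13.4 and 11.7 no higher than CCNY-shRNA at 12.1 and 14.02. Of 20 scaffold genes, 1 (5.0%) was lower at an unadjusted p under 0.05, less than the 7.12% of all genes, and 0 were higher. It was Cnksr2 (48.5 and 47.4 against 42.2 and 40.8, -0.21, limma adjusted p = 0.258), and the median of the list was -0.07. Among 30 activity-regulated genes, 0 passed, 4 were lower at that level (13.3%), among them Nptx2 (-0.28), Fosb (-0.54) and Fos (-0.20), and Klf10 was higher (0.25).

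In the list of potassium channels, 0 of 56 tested passed the adjusted threshold, with a median of -0.08. At an unadjusted p under 0.05, 8 were lower (14.3%, against 7.12% of all genes) and 0 higher. Kcnmb4, the neuronal beta subunit of BK channels, came nearest, with 33.9 and 31.8 against 23.3 and 21.4, and with 27.5 and 25.96 in EGFP (log2 difference -0.56, standard error 0.0807, limma adjusted p = 0.0556). The leak channel gene Kcnk9 had 25.2 and 24.1 against 20.5 and 17.1 (-0.40) and the Kv1 subunit Kcna6 29.1 and 27.4 against 22.6 and 23.3 (-0.30). Of 23 cadherins and protocadherins, 0 passed, and 7 were lower at that level (30.4%) and 0 higher. Pcdh8, an activity-regulated protocadherin, had 129 and 128 against 97.3 and 78.96 (-0.55 with a standard error of 0.0904 and a limma adjusted p of 0.0797). Pcdh17 (-0.24), Pcdh18 (-0.66) and Pcdh11x (-0.18) were the next by p.

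Matrix genes had the most negative median of the lists with at least 10 members tested. Of 23 genes for the perineuronal net and other brain matrix proteins, 22 had a negative and 1, Mgp, a positive difference, with a median of -0.19 against 0.00 over all genes. None passed the adjusted threshold in limma. At an unadjusted p under 0.05, 9 (39.1%, against 7.12% of all genes) were lower and 1 higher. Bcan, the proteoglycan brevican, had 29.97 and 32.8 in CCNY-WT, 21.8 in each in CCNY-shRNA, and 28.5 and 29.2 in EGFP (log2 difference -0.52, standard error 0.0752, limma adjusted p = 0.0556). The link protein Hapln1 had 16.2 and 14.8 against 10.2 and 11.5 (-0.51), the proteoglycan Cspg5 76.5 and 78.1 against 66.4 and 62.6 (-0.26) and neurocan, Ncan, 83.3 and 78.4 against 70.3 and 68.8 (-0.22). Mgp, an inhibitor of calcification, went the other way, with 8.15 and 8.21 against 14.3 and 21.5, and with 4.07 and 5.11 in EGFP (1.10, limma adjusted p = 0.112). Astrocytes also make several of these proteins, and the summed FPKM of 15 astrocyte markers was 1436 and 1395 in CCNY-WT versus 1039 and 1250.0 in CCNY-shRNA. Apoe alone made up the larger part of each sum of these markers. The part of these markers in the matrix values was not tested. Among 26 integrins, laminins, collagens and matrix receptors, 0 passed, 5 were lower (19.2%) and 0 higher at an unadjusted p under 0.05. They included the integrin Itgb8, near the floor at 2.18 and 2.48 against 1.02 and 1.11 (-1.12, limma adjusted p = 0.0918), and Itgbl1, with 56.9 and 54.04 against 40.1 and 42.8 (-0.42, limma adjusted p = 0.108).

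**Figure D3:**
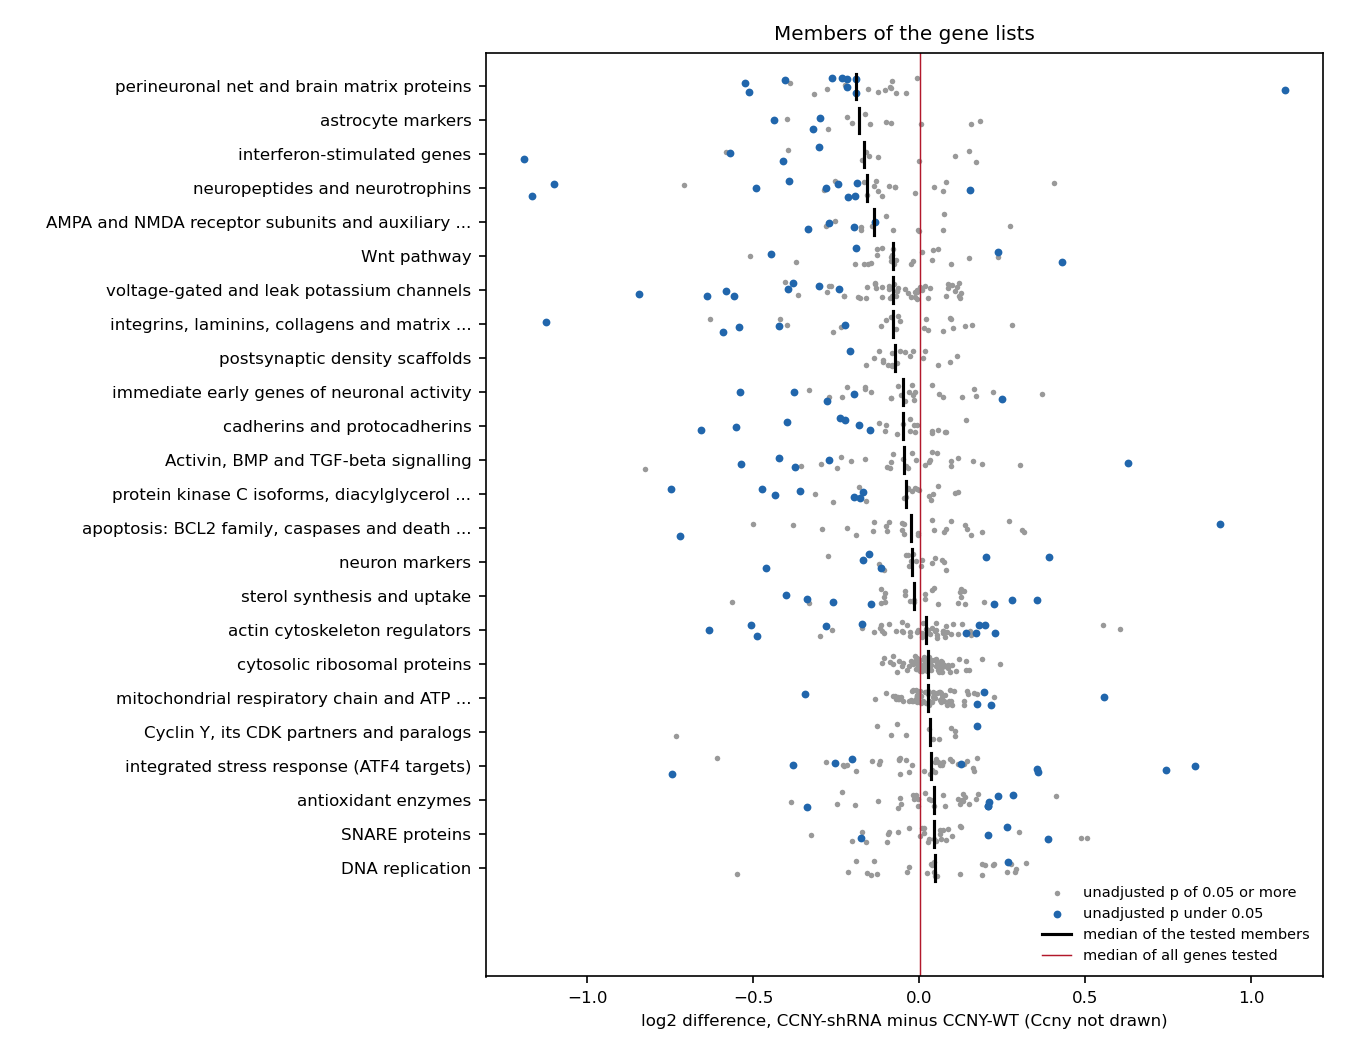
Log2 difference of CCNY-shRNA from CCNY-WT for the tested members of each list with at least 10 of them (Ccny not drawn), with the median of each list as a black bar and the median of all genes tested as a red line. Blue points have an unadjusted p under 0.05, and the medians run from -0.19 for matrix proteins to 0.05 for DNA replication.

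Among neuropeptides and neurotrophins, 0 of 27 tested passed the adjusted threshold, with a median of -0.16. At an unadjusted p under 0.05, 9 were lower (33.3%, against 7.12% of all genes) and 1 higher. Ngfr, the p75 neurotrophin receptor, lay near the floor, with 2.35 and 2.34 in CCNY-WT, 1.0002 and 1.09 in CCNY-shRNA, and 1.58 and 1.501 in EGFP (log2 difference -1.17, standard error 0.191, limma adjusted p = 0.0797). Crh, the corticotropin-releasing hormone, had 2.14 and 2.15 against 0.815 and 0.722, with EGFP between at 1.33 and 1.53 (-1.10, limma adjusted p = 0.108). Since values under 1 were floored, the fitted difference understates that of Crh. The better expressed members Sort1 (109 and 104 against 93.6 and 82.7, -0.28), Crhbp (-0.39), Vip (-0.49), the BDNF receptor Ntrk2 (-0.19) and Vgf (-0.19) differed by less. Sorcs2 (0.15) was the 1 higher at an unadjusted p under 0.05, while 5 of the 27 had a positive difference.

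Chemokines and interferon-stimulated genes were mostly under an FPKM of 1. Of 35 chemokines and receptors listed, 9 could be tested, of which 0 passed. At an unadjusted p under 0.05, 3 were lower (33.3%, against 7.12% of all genes) and 0 higher. Ccl7 and Ccl2, both among the 3, are named by the study as moved by CCNY in these same libraries, so the share is descriptive only. Ccl7 had 2.48 and 2.93 in CCNY-WT, 0.668 and 0.472 in CCNY-shRNA, and 1.37 and 1.75 in EGFP (log2 difference -1.43, standard error 0.216, limma adjusted p = 0.0579). Both CCNY-shRNA values were floored to 1, so the fitted difference understates that of Ccl7. Ccl2 had 6.50 and 12.3 against 3.14 and 5.93 (-1.05 with a standard error of 0.373 and a limma adjusted p of 0.333), where the CCNY-WT libraries lay further apart than the nearest libraries of the 2 conditions. Of 14 interferon-stimulated genes tested, 0 passed, and 4 (28.6%) were lower at an unadjusted p under 0.05 and 0 higher. The antigen-presentation gene B2m had 116 and 113 against 83.4 and 103 (-0.30) and Ifitm3 5.91 and 7.47 against 2.001 and 4.24 (-1.19).

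Of 55 actin regulators tested, 0 passed the adjusted threshold, and 5 were lower and 5 higher at an unadjusted p under 0.05 (9.09% each, near the 7.12% and 5.05% of all genes), with a median of 0.02. Tmod1, which caps the pointed ends of actin filaments, had 20.4 and 18.2 against 12.6 and 12.3 (log2 difference -0.63, standard error 0.101, limma adjusted p = 0.0688). Gsn, the severing protein gelsolin, had 68.5 and 67.1 against 46.1 and 50.7 (-0.49 with a standard error of 0.0809 and a limma adjusted p of 0.0820). The neuronal tropomodulin Tmod2 was also on the lower side (-0.28). On the higher side were the monomer-binding protein profilin, Pfn1 (157 and 155 against 172 and 194, 0.23), and the depolymerizing factors Dstn (0.14) and Cfl2 (0.18).

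The stress, redox and mitochondrial lists had medians of 0.03 to 0.04, close to that of all genes. In the list of ATF4 targets of the integrated stress response, 0 of 44 passed. At an unadjusted p under 0.05, 4 were lower (9.09%, against 7.12% of all genes) and 5 higher (11.4%, against 5.05%). Gdf15 was lower (6.35 and 7.25 against 3.70 and 4.44, -0.74), whereas the phosphatase subunit Ppp1r15a (GADD34) was higher (20.5 and 19.1 against 25.5 and 25.2, 0.36), at limma adjusted p-values of 0.149 and 0.174. Of 35 antioxidant enzymes, 0 passed, 5 were higher (14.3%, against 5.05% of all genes) and 1, Gstp1, was lower at an unadjusted p under 0.05. Sod1, the cytosolic superoxide dismutase, had 405 and 381 in CCNY-WT, 471 and 484 in CCNY-shRNA, and 376 and 346 in EGFP (0.28, limma adjusted p = 0.174), and Prdx5 had 175 and 187 against 206 and 211 (0.21). Of 71 respiratory chain and ATP synthase genes, 0 passed, and 4 (5.63%, near the 5.05% of all genes) were higher and 1 (1.41%) lower at that level. The higher were led by the complex I subunit Ndufs6 (68.3 and 81.7 against 115 and 105, 0.56, limma adjusted p = 0.0878), and the lower was Ndufs4, of the same complex (106 and 111 against 83.5 and 88.1, -0.34). Cytosolic ribosomal proteins, with 77 tested, had 0 under an unadjusted p of 0.05 in either direction, and their differences lay between -0.11 and 0.24.

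Of 31 genes of sterol synthesis and uptake tested, 0 passed, and 4 were lower (12.9%, against 7.12% of all genes) and 3 higher (9.68%, against 5.05%) at an unadjusted p under 0.05, with a median of -0.02. Mvd, an enzyme of the mevalonate pathway, had 216 and 211 against 260.2 and 258 (log2 difference 0.28, standard error 0.0521, limma adjusted p = 0.112). Insig1, which retains the sterol sensor in the endoplasmic reticulum, had 275 and 258 against 220.3 and 201 (-0.34 with a standard error of 0.0646 and a limma adjusted p of 0.117), and Srebf1 20.6 and 20.1 against 14.3 and 16.5 (-0.40). SNARE proteins (33 tested) had 3 higher (9.09%) and 1 lower (3.03%) at that level and 0 past the adjusted threshold. Among them were Stx8, with 14.9 and 13.9 against 17.1 and 17.5 (0.26), and Bet1 (0.39). DNA replication genes (28 tested) had 1 (3.57%, under the 5.05% of all genes), the primase Prim1, with 22.9 and 22.96 against 28.3 and 26.9 (0.27, limma adjusted p = 0.241). Of 32 genes of activin, BMP and TGF-beta signalling, 0 passed. At that level 4 (12.5%) were lower, with the receptors Bmpr1a (-0.37) and Acvr2a (-0.27) among them. Only 1 (3.12%), the BMP antagonist Chrd, was higher (0.63). Of 30 genes of apoptosis, 0 passed, and the adaptor Fadd (2.92 and 3.79 against 6.67 and 5.82, 0.91) and the caspase Casp4 (-0.72) were those under an unadjusted p of 0.05. Each makes up 3.33% of the list, under the share of all genes in its direction.

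The labelled cell type was borne out by its markers, with other brain cells at low levels except astrocytes. The summed FPKM of 22 neuron markers was 7610.0 and 7643 in CCNY-WT versus 7663 and 7571 in CCNY-shRNA, and all 22 were above 1 in some library. For the 15 astrocyte markers the sums were 1436 and 1395 against 1039 and 1250.0, with 1274 and 1361 in EGFP. In 9 of the 14 tested, both CCNY-shRNA libraries lay under both CCNY-WT libraries, against 21.9% of all genes. None passed the adjusted threshold, and 3 (21.4%, against 7.12% of all genes) were lower at an unadjusted p under 0.05. Those 3 were the glutamate transporters Slc1a2 (86.7 and 78.1 against 65.2 and 68.6, -0.30) and Slc1a3 (86.2 and 87.6 against 63.5 and 76.1, -0.32) and the lipid carrier Apoe (819 and 785 against 529 and 663, -0.44). Apoe, with 691 and 737 in EGFP, alone made up the larger part of the astrocyte marker sum in every library. Of the 2 CCNY-shRNA libraries, replicate 1 had the lower sum, and the part of these markers in the differences of other genes was not tested. The 15 oligodendrocyte lineage markers summed to 59.5 and 55.2 against 50.9 and 49.00. Of the 7 tested, 2 (28.6%), Ugt8 (-0.53) and Olig1 (-0.38), were lower at an unadjusted p under 0.05. For the 18 vascular and meningeal markers the sums were 89.5 and 89.4 against 86.2 and 94.5, with 4 tested (Mgp higher and Lum lower at that level) and the endothelial genes Cdh5 and Cldn5 listed at 0 in all libraries. Microglia markers summed to at most 2.02 in any library, with Aif1 and Cx3cr1 listed at 0 and 1 marker tested. The 18 mitotic markers summed to 12.99 and 12.6 against 15.7 and 16.04, and 9 of them lay under 1 in every library, while Ccnb1 (-0.64) was the one of 7 tested under an unadjusted p of 0.05. Of the 22 neuron markers, 4 (18.2%, against 7.12% of all genes) were lower at an unadjusted p under 0.05 and 2 (9.09%, against 5.05%) were higher. Gad2, on the lower side, was the one past the threshold, and Neurod6 (-0.15) was another of the 4. The 2 higher were the transcription factor Neurod2 (32.9 and 30.6 against 41.7 and 41.6, 0.39, limma adjusted p = 0.157) and the tubulin Tubb3 (575 and 603 against 674 and 679.6, 0.20, limma adjusted p = 0.260). They had the next smallest p after Gad2.

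**Figure D4:**
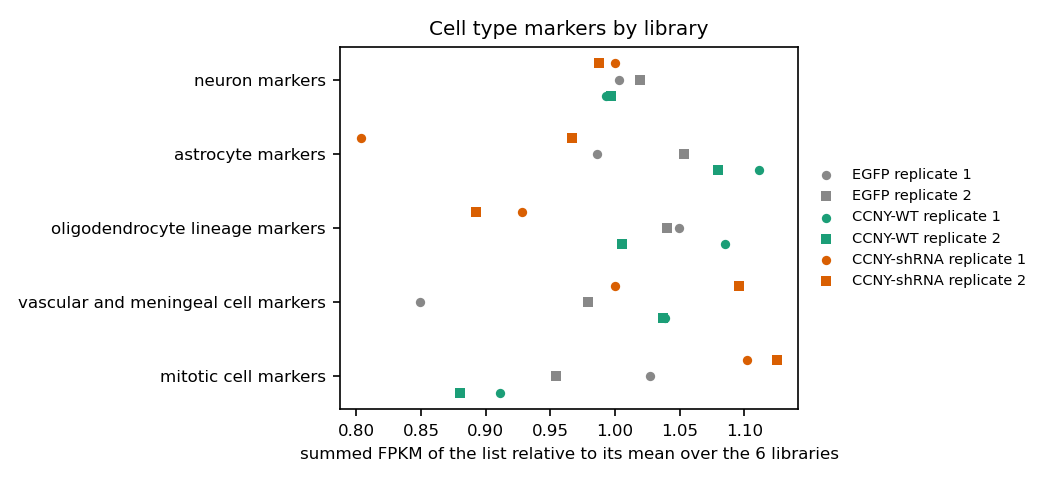
Summed FPKM of each list of cell type markers in each library, divided by the mean of that sum over the 6 libraries (microglia, with sums of at most 2.02, are not drawn). For astrocyte markers the CCNY-WT libraries (1436 and 1395) lie right of the CCNY-shRNA libraries (1039 and 1250.0), whereas neuron markers lie within a narrow range. Apoe alone makes up the larger part of each astrocyte sum.

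Some of the largest differences missed the threshold. With an unadjusted p under 0.01, a mean FPKM of at least 5 and no overlap between the conditions, the 10 largest differences in the lower direction held 6 of the genes described above and Ifi30, Kcnj10, Nppc and S1pr1. Kcnj10, the inward rectifier Kir4.1 that is typical of astrocytes, had 9.23 and 9.21 against 4.92 and 5.35 (log2 difference -0.85, limma adjusted p = 0.157). The sphingosine-1-phosphate receptor gene S1pr1 had 7.15 and 6.24 against 3.86 and 4.02 (-0.76, limma adjusted p = 0.112), and the natriuretic peptide gene Nppc 23.3 and 23.02 against 16.8 and 10.9 (-0.78, limma adjusted p = 0.174). In the higher direction the 10 were Mgp, Med8, Txnip, LOC100366030, Dnph1, Trub1, Chrd, P2rx4, Epm2a and Ndufs6, with adjusted p-values from 0.0878 to 0.265 in limma. The Mediator subunit Med8 had 8.13 and 9.12 in CCNY-WT, 16.7 and 13.7 in CCNY-shRNA, and 9.60 and 11.8 in EGFP (0.81). Txnip, a thioredoxin-binding protein, had 3.75 and 4.70 against 8.96 and 5.85 (0.79). Among still weaker genes, Plaur, the urokinase receptor, was listed at 0 in both CCNY-WT libraries and had 7.01 and 2.93 in CCNY-shRNA, with 0 and 1.04 in EGFP (limma adjusted p = 0.0878). It was chosen after its values were seen.

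**Figure D5:**
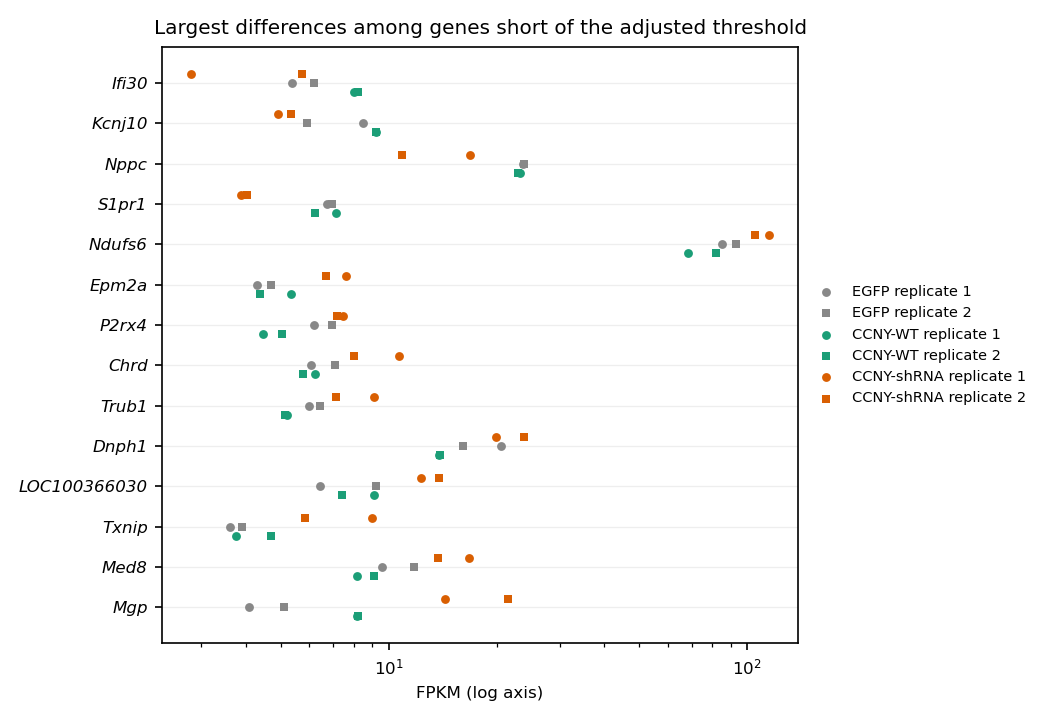
FPKM (log axis) in each library of the 14 genes among the 10 largest differences in each direction (mean FPKM of at least 5) that missed the adjusted threshold. CCNY-shRNA lies left of CCNY-WT for Ifi30, Kcnj10, Nppc and S1pr1 and right of it for the other 10. The EGFP libraries lie between or beside them, except for Mgp, where they lie left of both conditions.

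The study's text names several genes as moved in opposite directions by overexpression and knockdown, chosen on these same libraries. The study also reports quantitative real-time PCR in support of these genes, so its statement does not rest on the libraries alone. Those PCR measurements were not analysed here. In the direct comparison, 8 of the 9 named genes could be tested, and all 8 were lower in CCNY-shRNA, a direction that their choice fixes. None passed the adjusted threshold in limma, and 6 had an unadjusted p under 0.05. Besides Crh, Ccl7, Ccl2 and Kcnj10, these were Ifi30 (8.002 and 8.23 against 2.81 and 5.72, -1.02, limma adjusted p = 0.263) and Prtn3 (1.78 and 3.15 against 1.43 and 0.507, -0.98, limma adjusted p = 0.404). The floor makes the fitted difference of Prtn3 too small. Crh, Ccl7, Ccl2 and Kcnj10 also count in the shares given above for their lists. Kcnk13 (1.09 and 1.53) and Hand2 (2.11 and 1.47) were detected in CCNY-WT and listed at 0 in both CCNY-shRNA libraries, but Hand2 also stood at 0 and 3.70 in the EGFP libraries. Nrl, the remaining gene, had 0 and 0.344 in CCNY-WT versus 1.17 and 0.830 in CCNY-shRNA and was below the filter.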

How the data were processed

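RNA-seq libraries of rat primary hippocampal neurons (2 each of CCNY-shRNA, CCNY-WT and EGFP) were analysed from the table of FPKM values that the authors deposited. The authors mapped 150-bp paired-end reads to rn4 with TopHat 2 and computed FPKM with Cufflinks (2.2.1 in the submitters' processing notes). The annotation and any further scaling are not given in the sources used here.

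Values under 1 were set to 1 before taking log2. The genes reaching an FPKM of 1 in 2 or more of the 6 libraries were fitted with limma 3.58.1 in R 4.3.3 (lmFit, contrasts.fit, eBayes with a trend), with the contrast CCNY-shRNA minus CCNY-WT and no replicate block. The Benjamini-Hochberg adjusted p was held to 0.05. The model was tested on simulated data. Lists of genes were described by counts and medians without a set test. Symbols were matched to RefSeq names, 14569 as current symbols, 2114 as synonyms and 383 not matched. Depth is known only relative to one library, and precision is given by the standard errors. Figures were drawn with matplotlib 3.10.9 in Python 3.11.15, with pandas 2.3.3.

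Named genes were Ccny, all genes past the threshold, the 10 largest differences in each direction (unadjusted p under 0.01, mean FPKM of at least 5, no overlap), up to 4 members of each list by p, and the 9 genes the study's text names. Further list members under an unadjusted p of 0.05, Cdk14, Lrp6, Gad1, Slc32a1, Rhoa, Rpl36, Bc1 and Plaur are named outside this rule. A few genes that this rule names, 1 of them past the threshold, are not reported here. The members and lists were chosen with earlier results of these data known. Alternatives covered the offset, the filter, the scaling, the libraries in the fit, the eBayes options, the replicate block, the threshold and leaving out each library.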

Additional observations from a re-analysis of the deposited data

How the results depend on the processing

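The difference of Ccny passed the adjusted threshold under all 17 alternatives to the fit, between -4.18 and -3.95. The counts depended on the estimate of the spread. Against 20 lower and 2 higher genes, the fit on only the 4 libraries compared gave 1 and 0, with 647 and 451 at an unadjusted p under 0.05, eBayes without a trend gave 1 and 0 (704 and 420 unadjusted), and no filter gave 1 and 1. A filter of FPKM of at least 5 in 2 libraries gave 38 lower and 2 higher genes, an adjusted p of 0.1 gave 46 and 4, and an unadjusted p of 0.05 gave 725 and 514. Leaving out 1 library gave 1 to 7 lower and 0 to 1 higher genes, with 293 to 642 higher at an unadjusted p under 0.05. The other alternatives gave 16 to 30 lower and 1 or 2 higher genes, and quantile normalization kept 18 of the 22 genes. The replicate block gave 17 lower and 1 higher. The deviations of same-numbered libraries correlated at 0.0377 to 0.0538 over genes, so the numbers gave little sign of pairing. Whether same-numbered libraries shared a culture or batch is not settled by these values. No called gene changed sign. Of the other genes named, Cd68 reversed with log2(FPKM + 1), to 0.068, and with log2(FPKM + 0.1), to 0.212. With a library left out, Cd68 ranged from -0.166 to 0.011 and Dcn from -0.043 to 0.179. The cause was not tested. The unknown depth limits statements on genes near an FPKM of 1.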

Other observations

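Just beyond the threshold, at limma adjusted p-values of 0.05 to 0.1, stood further genes of membranes and lipids, chosen here after their values were seen. Cyp46a1, the neuronal cholesterol 24-hydroxylase, had an FPKM of 73.6 and 70.4 in CCNY-WT versus 54.1 and 56.3 in CCNY-shRNA (log2 difference -0.38, limma adjusted p = 0.0556). The fatty acid elongase Elovl5 had 75.6 and 71.9 against 52.7 and 54.7 (-0.46, limma adjusted p = 0.0556) and the lipoprotein lipase Lpl 57.7 and 57.5 against 46.6 and 42.4 (-0.37, limma adjusted p = 0.0918). All 3 had both CCNY-shRNA libraries under both CCNY-WT libraries, which follows from their choice by p and adds no support. The genes named here are some of those added when the adjusted p was held to 0.1. That threshold gave 46 lower and 4 higher genes, against 20 and 2 at 0.05. Of membrane proteins, the sodium pump subunit Atp1b2 had 132 and 131 against 105 and 97.9 (-0.38), the calcium channel subunit Cacna2d3 62.4 and 63.4 against 48.02 and 48.2 (-0.39), and the semaphorin co-receptor Nrp2 109 and 108 against 88.5 and 87.6 (-0.30). Hap1, the huntingtin-associated trafficking protein, had 53.1 and 61.4 against 38.1 and 40.2, with 55.8 and 56.96 in EGFP (-0.54, limma adjusted p = 0.0556).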
